A study of Homo sapiens with 12 samples.

Results

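ERVK regions are the stretches of the genome in which the deposited table names a single repeat and that repeat belongs to ERVK, the class of human endogenous retroviruses related to betaretroviruses. The table lists 5254113 stranded regions, and 10171 of them hold exactly 1 repeat name of this class, spread over 42 subfamilies. Reads came from RNA pulled down with J2, an antibody to double-stranded RNA, in NCI-H1944, an established human lung adenocarcinoma line. Cells carried either SCR, with a wild-type genotype, or IFNAR1sg, with an IFNAR1 knockout genotype, so all cells of the study carried a guide label and none is described as unmodified. Each genotype had a DMSO group, an MPS1i group and an IFNb group, with 2 libraries in each of the 6 groups. MPS1i is BAY-1217389, an inhibitor of the MPS1 kinase of the spindle checkpoint, given at 100 nM for 48 h and followed by a washout. IFNb is recombinant interferon beta, given at 5 ng/ml in the 24 h of culture that came after. Whether the knockout is 1 clone or a pool, and whether the 2 libraries of a group came from separate cultures, is not stated in the labels, so p-values measure the spread between these libraries, which may be technical. The stated purpose was to find transcripts that form double-stranded RNA after a pulse of MPS1 inhibition and depend on type I interferon.

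ERVK proviruses carry gag, pro, pol and env genes between long terminal repeats (LTRs), which hold the promoter and the end of the viral transcript. Most copies in the genome are solitary LTRs left by recombination, and many are kept silent by zinc finger proteins with TRIM28 and SETDB1 and by DNA methylation. Internal sequences and their LTRs have separate subfamily names: HERVK-int with the LTR5 subfamilies forms HML-2, the youngest group, and HERVK11-int with MER11A, MER11B and MER11C forms HML-8. When such elements are transcribed from both strands, or lie inverted in 1 transcript, their RNA can pair, and sensors such as MDA5 (IFIH1) and PKR (EIF2AK2) bind paired RNA.

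Sequence could be read for regions of 2 of these elements, from GENCODE transcripts of the hg38 build that run opposite the region. It is written on the strand of the region. Each window lies inside a region that carries the element's name, and where the element lies in the window was not checked. The 2 windows are shown because HERVK3-int is an internal sequence with a tested region and LTR13A is an LTR whose copy in RBBP4 is described below. The first window is chr19:58312970-58313113 on the plus strand, 144 bases inside an intronic region of ERVK3-1, and the second is chr1:11912914-11913213 on the minus strand, 300 bases inside a region opposite a long non-coding gene.
HERVK3-int: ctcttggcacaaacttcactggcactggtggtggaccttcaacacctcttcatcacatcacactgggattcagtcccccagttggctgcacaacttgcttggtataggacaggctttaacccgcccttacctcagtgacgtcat
LTR13A: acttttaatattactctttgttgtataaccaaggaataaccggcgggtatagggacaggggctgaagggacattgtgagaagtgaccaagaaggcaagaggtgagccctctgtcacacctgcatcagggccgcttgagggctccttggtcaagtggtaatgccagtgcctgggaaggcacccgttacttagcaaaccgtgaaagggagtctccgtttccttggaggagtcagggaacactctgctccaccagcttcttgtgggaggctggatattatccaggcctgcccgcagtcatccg
GC content was 52.1% in the HERVK3-int window and 53.3% in the LTR13A window. Neither window held the letters GAAANNGAA, the core of the interferon-stimulated response element, or ATTTGCAT, the octamer, on either strand, so no letters are in capitals. GAAANNGAA was present in 8.11% and ATTTGCAT in 1.77% of 35116 RefSeq promoter windows of 300 bases (GRCh38.p14). A missing match says only that these letters are not in these windows. The region around the HERVK3-int window (chr19:58312463-58313451, 989 bp) had 518 reads in all. Its level in CPM (read counts scaled to a common library size with TMM factors) was 8.31 and 7.76 (DMSO), 5.56 and 5.46 (MPS1i) and 5.78 and 7.08 (IFNb) in SCR. Corresponding levels were 8.55 and 6.65 (DMSO), 8.67 and 5.23 (MPS1i) and 8.01 and 7.505 (IFNb) in IFNAR1sg. In SCR both treatments lay below DMSO, and in IFNAR1sg the groups overlapped. The MPS1i change in SCR was -0.55 ± 0.32 (adjusted p = 0.243) on the log2 scale by edgeR's quasi-likelihood test. The LTR13A window lies in a region with 28 reads, too few to be tested.

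Libraries held 3739443 to 7430687 reads. Both SCR IFNb libraries stood apart, with 295367 and 296843 regions with a read against 566704 to 935974 in the other libraries, 49.6% and 47.9% of reads in exon-sharing regions against 33.2% to 39.7%, and TMM factors of 0.855 and 0.869 against 0.948 to 1.082. The median change over all tested regions, with TMM factors left out, moved by -0.32 for IFNb in SCR, -0.16 for MPS1i in SCR and -0.13 for MPS1i in IFNAR1sg. IFNAR1 itself, a subunit of the interferon receptor, had a summed intronic level of 4.63 and 5.23 (DMSO), 6.57 and 4.58 (MPS1i) and 2.43 and 0 (IFNb) in SCR, and of 4.37 and 4.30 (DMSO), 3.47 and 3.22 (MPS1i) and 3.23 and 2.92 (IFNb) in IFNAR1sg, and the IFNAR1sg minus SCR difference in DMSO was -0.18 ± 0.38 (adjusted p = 0.951). A guide can disrupt a protein without lowering its RNA, so this level does not check the labels. Of 19 measured interferon response genes, 19 rose with MPS1i and 19 with IFNb in SCR, 19 with MPS1i in IFNAR1sg and 14 with IFNb in IFNAR1sg, with a larger IFNb change in SCR for 16. Of 9 lung epithelium markers 5 were measured (EPCAM, KRT7, KRT8, KRT18 and CDH1), with a summed level of 78.8 to 129 CPM, and 3 rose with MPS1i and 1 rose and 2 fell with IFNb in SCR, while 2 rose and 1 fell with MPS1i in IFNAR1sg. KRT18, a keratin of simple epithelia, rose with MPS1i in SCR by 0.78 and fell by 0.51 in IFNAR1sg, and the difference was called (adjusted p = 0.000114). Of 8 fibroblast, 7 immune and 3 endothelium markers, 2 each passed the filter. Their summed levels were 1.74 to 2.999 CPM in SCR DMSO and 17.4 to 18.1 in SCR MPS1i (FAP and ACTA2), 0.475 to 0.818 and 4.40 to 6.07 (CD4 and CD8A) and 2.59 to 3.80 and 4.80 to 5.46 (PECAM1 and VWF). Their part in the ERVK results was not tested. Fewer cells of a type and less RNA per cell cannot be told apart in bulk RNA, and, with input RNA not analysed here, neither can the amount of a transcript and the share of it bound by J2.

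ERVK regions were short and mostly without reads. Their median length was 126 bp, and 6575 of the 10171 had no read in any library. They held 58256 reads, 0.0818% of the table, or 2084 to 6301 reads per library. By place, 6009 regions were intergenic, 2375 were intronic on the strand of a gene, 1775 lay opposite a gene (antisense) and 12 shared a base with an exon of their strand. The exon-sharing regions held 48.1% of the reads, and 1 of them, a 12630 bp stretch named HERVK14-int over AKR1C3, held 42.5% alone. Sums below therefore leave the exon-sharing regions out, which leaves 30249 reads, while each tested region is described wherever it lies. A region had to pass a filter on low counts to be tested, and 70 ERVK regions did, of 89111 in the table. They were longer than most members, with a median of 885 bp, and the table's annotation of the region's centre named an ERVK element for 48 of the 70. A level therefore belongs to the region and can include sequence beside the element.

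Taken as 1 sum, RNA from ERVK regions rose after the MPS1 inhibitor pulse in both genotypes, and its IFNb changes were not called. The family sum was 368 and 347 (DMSO), 519.97 and 462 (MPS1i) and 377 and 333 CPM (IFNb) in SCR. The libraries held 391 and 377 (DMSO), 569 and 492 (MPS1i) and 375 and 392.04 CPM (IFNb) in IFNAR1sg. All 4 MPS1i libraries lay above the other 8. The MPS1i change was 0.46 ± 0.07 (adjusted p = 7.88e-06) in SCR and 0.47 ± 0.07 (adjusted p = 1.66e-06) in IFNAR1sg on the log2 scale, in edgeR fits over 55 repeat families of which 27.3% and 38.2% were called (23.6% and 36.4% as higher, 3.64% and 1.82% as lower). The IFNb change was -0.01 ± 0.08 (adjusted p = 0.904) in SCR, where 69.1% of families were called and 63.6% as lower, and -0.00 ± 0.07 (adjusted p = 0.999) in IFNAR1sg. With the exon-sharing regions kept, the MPS1i change was 0.05 in SCR and 0.06 in IFNAR1sg and no longer called. Without TMM factors the IFNb change in SCR was -0.33 and called as lower. The MPS1i and IFNb comparisons of a genotype share its DMSO libraries.

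The higher MPS1i levels lay mainly off the strands of genes, and intronic levels moved little. Off the strands of genes (antisense and intergenic), ERVK regions had 135 ± 3.40 CPM (mean ± SD, n = 2) in SCR DMSO, 259.7 ± 20.6 in SCR MPS1i and 173 ± 13.8 in SCR IFNb. In IFNAR1sg they had 145 ± 6.80, 282 ± 23.9 and 146 ± 3.17. The log2 ratio of these means was 0.95 for MPS1i in SCR against 0.38 for all reads off gene strands, and 0.96 against 0.51 in IFNAR1sg. ERVK reads per 10000 reads off gene strands were 5.07 in SCR DMSO, 7.48 in SCR MPS1i and 4.72 in SCR IFNb, and 5.96 and 8.19 in the DMSO and MPS1i groups of IFNAR1sg. For IFNb in SCR the off-gene ratio was 0.36, against 0.46 for all off-gene reads. Intronic ERVK regions had 222 ± 11.7, 231 ± 20.4 and 182 ± 16.8 CPM in the SCR groups, log2 ratios of 0.06 for MPS1i and -0.29 for IFNb against -0.23 and -0.59 over all intronic reads. Without TMM factors the off-gene ratios were 0.78 and 0.04 for MPS1i and IFNb in SCR, and the intronic MPS1i ratio was -0.11, below 0. These ratios are descriptions without a test.

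**Figure D1:**
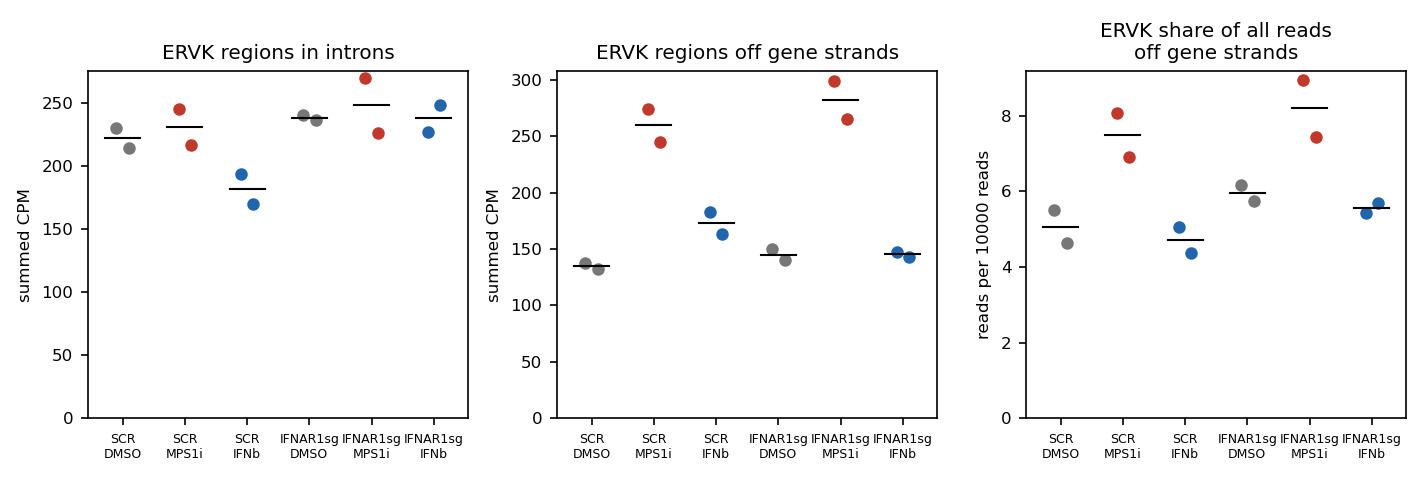
ERVK reads by place in each of the 12 libraries, as CPM in introns, as CPM off the strands of genes, and as ERVK reads per 10000 reads off gene strands. In the off-gene panel the 4 MPS1i libraries lie above all others, while in introns the groups overlap apart from lower SCR IFNb libraries.

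Among the LTRs, LTR5_Hs, MER11A and MER11C rose after MPS1i in both genotypes. Of the 42 subfamilies, 31 had enough reads as a sum to be tested, and for MPS1i in SCR 8 were higher and 0 lower, where 21.8% of all 1787 subfamily sums were called, 15.9% as higher and 5.93% as lower. For MPS1i in IFNAR1sg 7 were higher and 0 lower, where 26% were called, 21.8% as higher and 4.2% as lower. Without TMM factors, 4 were higher and 1 lower in SCR. The median change over the 31 was 0.47 in SCR and 0.46 in IFNAR1sg, beside 0.14 and 0.22 over all subfamily sums.

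LTR5_Hs, the LTR of the youngest HML-2 proviruses, had the most reads of any subfamily sum, 6951. Its level was 81.9 and 77.00 (DMSO), 134 and 109.6 (MPS1i) and 111 and 110.4 CPM (IFNb) in SCR. Levels in the knockout were 82.6 and 80.8 (DMSO), 114 and 107 (MPS1i) and 86.9 and 90.6 CPM (IFNb) in IFNAR1sg. The MPS1i and IFNb libraries of SCR did not overlap with DMSO, and in IFNAR1sg the MPS1i libraries lay above both other groups. The changes were 0.61 ± 0.11 (adjusted p = 8.03e-06) for MPS1i in SCR, 0.44 ± 0.11 (adjusted p = 0.00109) for MPS1i in IFNAR1sg and 0.48 ± 0.12 (adjusted p = 0.000347) for IFNb in SCR. Without TMM factors the last was 0.16 (adjusted p = 0.204). One region in an intron of NBPF15 held 35.3% of the LTR5_Hs reads. Of the older LTRs of HML-2, LTR5B rose with MPS1i in SCR by 0.41 ± 0.15 (adjusted p = 0.0323). That call was lost without SCR DMSO replicate 1 (0.38), SCR DMSO replicate 2 (0.42) or SCR MPS1i replicate 1 (0.22). It was also lost without TMM factors (0.24, adjusted p = 0.216). LTR5A changed by 0.30 ± 0.18 (adjusted p = 0.252) and was not called.

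Of the HML-8 LTRs, MER11A and MER11C were called as higher with MPS1i in both genotypes and MER11B was not. MER11A was at 30.5 and 28.2 (DMSO), 51.6 and 42.3 (MPS1i) and 30.1 and 23.1 CPM (IFNb) in SCR. It had 30.4 and 32.1 (DMSO), 51.4 and 48.3 (MPS1i) and 26.9 and 30.2 CPM (IFNb) in IFNAR1sg. Only its MPS1i libraries stood above the others, by 0.66 ± 0.15 (adjusted p = 0.000382) in SCR and 0.67 ± 0.14 (adjusted p = 0.000128) in IFNAR1sg, and the IFNb change in SCR was -0.14 ± 0.17 (adjusted p = 0.508). MER11C was at 23.7 and 19.96 (DMSO), 37.7 and 41.4 (MPS1i) and 43.8 and 37.8 CPM (IFNb) in SCR. Values in the knockout were 28.4 and 26.7 (DMSO), 42.3 and 37.6 (MPS1i) and 26.4 and 26.8 CPM (IFNb) in IFNAR1sg. In SCR both treatments lay above DMSO, by 0.86 ± 0.16 (adjusted p = 1.2e-05) with MPS1i and 0.90 ± 0.17 (adjusted p = 3.95e-06) with IFNb. In IFNAR1sg MPS1i raised it by 0.54 ± 0.15 (adjusted p = 0.00366), a call lost without IFNAR1sg DMSO replicate 2 (0.48, adjusted p = 0.0735) or IFNAR1sg MPS1i replicate 1 (0.45, adjusted p = 0.0554), and IFNb changed it by -0.05 ± 0.16 (adjusted p = 0.937). The IFNb change in SCR was larger than that in IFNAR1sg by 0.95 ± 0.23 (adjusted p = 0.000936). MER11B was not called in any of these comparisons, at 0.31 ± 0.19 (adjusted p = 0.253) for MPS1i and -0.48 ± 0.22 (adjusted p = 0.0702) for IFNb in SCR. MER9a3, an LTR of HML-3, rose with MPS1i in SCR by 1.16 ± 0.37 (adjusted p = 0.0136), lost without SCR DMSO replicate 1 (1.18, adjusted p = 0.0694), SCR DMSO replicate 2 (1.14, adjusted p = 0.073) or SCR MPS1i replicate 2 (0.97, adjusted p = 0.18).

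Internal sequences, which hold the viral genes, were rarer than LTRs, and 4 of them rose with MPS1i in the knockout. HERVK-int, the HML-2 proviral body, had 361 regions, 116 of them with a read, and no single one passed the filter. Its sum of 510 reads gave 5.45 and 5.55 (DMSO), 10.9 and 9.34 (MPS1i) and 2.74 and 1.85 CPM (IFNb) in SCR. The knockout libraries had 5.10 and 5.61 (DMSO), 15.03 and 10.9 (MPS1i) and 4.52 and 4.59 CPM (IFNb) in IFNAR1sg. The MPS1i libraries were the highest and the SCR IFNb libraries the lowest, and no groups of a genotype overlapped. HERVK-int rose with MPS1i by 1.26 ± 0.27 (adjusted p = 0.00013) in IFNAR1sg and by 0.87 ± 0.29 (adjusted p = 0.0205) in SCR. The SCR call was lost without any 1 of the 4 libraries compared (0.76 to 0.98), under DESeq2 (adjusted p = 0.0685) and without TMM factors (0.70, adjusted p = 0.0646). With IFNb in SCR it fell by 1.25 ± 0.42 (adjusted p = 0.0108), a call lost without SCR IFNb replicate 2 (-0.9998, adjusted p = 0.13).

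HERVK14C-int, the body of HML-9, was at 3.41 and 3.17 (DMSO), 8.09 and 5.11 (MPS1i) and 1.83 and 2.15 CPM (IFNb) in SCR. The knockout values were 1.64 and 1.56 (DMSO), 7.66 and 6.84 (MPS1i) and 1.81 and 1.53 CPM (IFNb) in IFNAR1sg. A single intergenic region, described below, held 34.6% of the HERVK14C-int reads, and its annotated centre is HERVK-int. The HERVK14C-int sum rose with MPS1i by 2.17 ± 0.39 (adjusted p = 6.2e-06) in IFNAR1sg, where both MPS1i libraries lay far above the other 4. In SCR the change was 0.97 ± 0.37 (adjusted p = 0.0472), which was lost without SCR MPS1i replicate 1 (0.63, adjusted p = 0.386), SCR DMSO replicate 1 (1.02, adjusted p = 0.132), SCR DMSO replicate 2 (0.90, adjusted p = 0.168) or IFNAR1sg MPS1i replicate 2 (0.96, adjusted p = 0.0516). Without TMM factors the MPS1i calls in SCR were lost for HERVK14C-int (0.80, adjusted p = 0.106) and for HERVK14-int (0.76, adjusted p = 0.0596). HERVK14-int, the body of HML-1, rose by 1.16 ± 0.29 (adjusted p = 0.00112) in IFNAR1sg and 0.92 ± 0.31 (adjusted p = 0.0197) in SCR. The latter was lost without any 1 of the 4 SCR libraries compared (adjusted p = 0.0503 to 0.15), and with the exon-sharing AKR1C3 region in the sum the values were -0.46 and -0.52. HERVK9-int, the body of HML-3, rose by 0.80 ± 0.19 (adjusted p = 0.000677) in IFNAR1sg, which was lost without IFNAR1sg DMSO replicate 1 (0.57, adjusted p = 0.0672). For MPS1i the difference between the genotypes, tested as the change in SCR minus that in IFNAR1sg, was called for 0 of 31 subfamily sums by edgeR, with 1 at an unadjusted p under 0.05 and 0 by DESeq2, where 0.056% of all sums were called.

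**Figure D2:**
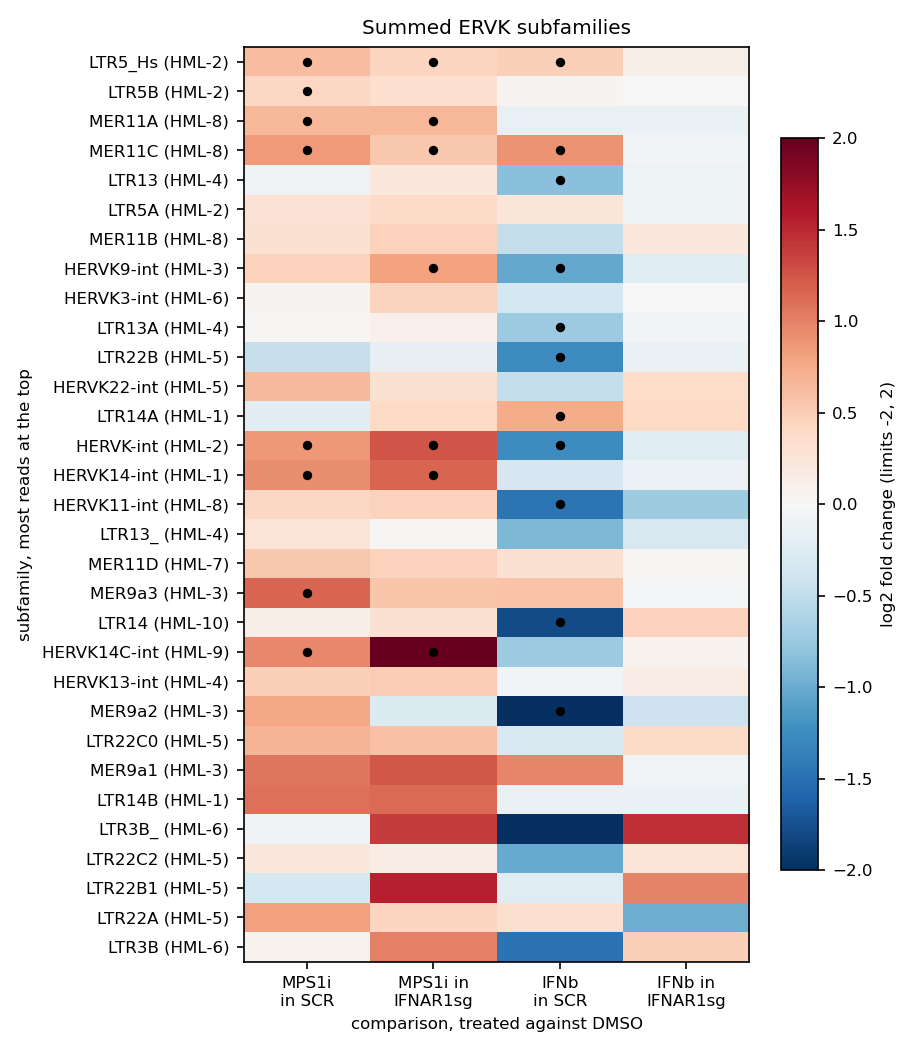
Heat map of the log2 change of the 31 tested ERVK subfamily sums in 4 comparisons, MPS1i and IFNb within SCR and within IFNAR1sg, with dots where the adjusted p is under 0.05 and colours that end at -2 and 2. The MPS1i columns hold 8 and 7 dots, all on higher sums, the IFNb column of SCR holds 3 on higher and 8 on lower sums, and the IFNb column of IFNAR1sg holds none.

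IFNb in SCR split the subfamilies, with 3 sums higher (LTR5_Hs, MER11C and LTR14A) and 8 lower, where 43.6% of all sums were called, 6.77% as higher and 36.9% as lower. Without TMM factors 1 was higher and 14 were lower, and neither LTR5_Hs (0.16, adjusted p = 0.204) nor LTR14A (0.42, adjusted p = 0.178) was called. The median change was -0.35 over the 31 and -0.57 over all sums. LTR14, an LTR of HML-10, was at 5.18 and 4.44 (DMSO), 4.55 and 5.81 (MPS1i) and 1.52 and 1.23 CPM (IFNb) in SCR and fell by 1.79 ± 0.50 (adjusted p = 0.0022). LTR22B, an LTR of HML-5, was at 13.1 and 12.04 (DMSO), 9.61 and 8.81 (MPS1i) and 6.09 and 4.31 CPM (IFNb) in SCR and fell by 1.27 ± 0.30 (adjusted p = 0.000245), with 54.4% of its reads in 1 region in SLC7A5. Neither pair of IFNb libraries overlapped with DMSO. LTR13 (HML-4) fell by 0.84 ± 0.20 (adjusted p = 0.000307), MER9a2 (HML-3) by 2.82 ± 0.88 (adjusted p = 0.00616) and HERVK9-int by 1.02 ± 0.27 (adjusted p = 0.00115). Without SCR IFNb replicate 2 these 3 were not called, at -0.56 (adjusted p = 0.061), -1.87 (adjusted p = 0.129) and -0.63 (adjusted p = 0.114). LTR13A was lower at -0.73 ± 0.26 (adjusted p = 0.0201), lost without SCR DMSO replicate 2 (-0.61, adjusted p = 0.096) or SCR IFNb replicate 2 (-0.45, adjusted p = 0.283). HERVK11-int was lower at -1.47 ± 0.45 (adjusted p = 0.00539), lost without SCR DMSO replicate 1 (-1.25, adjusted p = 0.0575) or SCR IFNb replicate 1 (-1.05, adjusted p = 0.131). LTR14A was higher at 0.74 ± 0.28 (adjusted p = 0.0233), with 96.7% of its reads in 1 region, lost without SCR DMSO replicate 1 (0.82, adjusted p = 0.0642), SCR DMSO replicate 2 (0.68, adjusted p = 0.0957) or SCR IFNb replicate 2 (0.51, adjusted p = 0.264).

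With IFNb in the knockout, 0 of 31 subfamily sums were called by edgeR, with 2 at an unadjusted p under 0.05 and 0 by DESeq2, where 0.056% of all sums were called. The tested difference, SCR change minus IFNAR1sg change, was higher for MER11C and lower for LTR14 at -2.25 ± 0.62 (adjusted p = 0.0037), LTR3B_ at -3.59 ± 1.14 (adjusted p = 0.0137), LTR22B at -1.14 ± 0.38 (adjusted p = 0.0183) and LTR13 at -0.74 ± 0.26 (adjusted p = 0.0269), where 22.7% of all sums were called (3.13% higher, 19.5% lower). Without TMM factors 1 was higher and 10 lower. LTR14 and MER11C held under every alternative run, and LTR3B_ was lost without SCR DMSO replicate 2 (-3.24, adjusted p = 0.0593) or SCR IFNb replicate 1 (-3.58, adjusted p = 0.0517). LTR22B was lost without SCR DMSO replicate 1 (-1.07, adjusted p = 0.0529) or SCR IFNb replicate 2 (-0.92, adjusted p = 0.138), and LTR13 without any 1 of 4 libraries (adjusted p = 0.0862 to 0.287). Between the genotypes in DMSO 0 of 31 were called by edgeR, with 3 at an unadjusted p under 0.05 and 0 by DESeq2, where 0.112% of all sums were called.

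Of the 70 tested regions, 6 were higher and 3 lower with MPS1i in SCR, where 17.5% of all tested regions were called (9.5% higher, 8% lower), and 4 were higher and 4 lower with MPS1i in IFNAR1sg, where 17.3% were called (9.41% and 7.85%). With IFNb in SCR 11 were higher and 10 lower, where 33% were called (15% and 18.1%). Without TMM factors these counts were 5 higher and 4 lower, 4 higher and 6 lower, and 5 higher and 12 lower. The IFNb change differed between the genotypes for 6 regions in the higher and 2 in the lower direction (2 and 4 without TMM factors), where 12.2% were called, 5.11% and 7.05%. The MPS1i change differed for 0 by edgeR, with 2 at an unadjusted p under 0.05 and 0 by DESeq2, where 0.0617% of all were called, 0.0505% as higher and 0.0112% as lower. With IFNb in IFNAR1sg 0 were called by edgeR, 4 at an unadjusted p under 0.05 and 0 by DESeq2, where 0.679% of all were called, 0.547% as higher and 0.132% as lower. Between the genotypes in DMSO 0 were called by edgeR, 4 at an unadjusted p under 0.05 and 0 by DESeq2, where 0.0774% of all were called, 0.0135% as higher and 0.064% as lower. These shares lie near those of all regions, so the counts alone do not set ERVK regions apart. The test keeps only regions with enough reads in at least 1 group, so the counts do not speak for all 10171.

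By place, called members in introns were mostly lower with IFNb, as were called intronic regions at large, and none of the called antisense or intergenic members was lower. Of the 36 tested intronic members, 3 were higher and 2 lower with MPS1i in SCR, where 4.62% and 11.8% of all tested intronic regions were called, and 3 were higher and 9 lower with IFNb in SCR, where 5.6% and 25.5% were called. Their medians were -0.44 and -1.08 beside -0.46 and -1.05. Of the 21 intergenic members, 1 was higher with MPS1i in SCR, 4 with IFNb in SCR and 3 with MPS1i in IFNAR1sg, none lower. Over all tested intergenic regions 14.2%, 11.2% and 14.1% were higher and 3.87%, 14% and 2.83% lower. The members' medians were 0.48, 0.31 and 0.35 beside 0.29, -0.13 and 0.29. Of the 8 antisense members, 2 were higher with each treatment in SCR and none lower. Over all tested antisense regions 16% and 30.9% were higher and 1.54% and 4.11% lower. The members' median was 1.04 beside 0.38 for MPS1i and 0.12 beside 0.61 for IFNb. Whether the absence of lower members differs from these shares was not tested, and the members are few. For 30 intronic members the host gene had its own summed level with the member left out. With IFNb in SCR 19 of these 30 hosts were lower and 3 higher, where 39.4% and 8.01% of all genes summed this way were. All 8 lower members that had such a sum lay in lower hosts and 1 of 2 higher members in a higher host, and the medians were -1.14 for members and -0.68 for hosts. With MPS1i in SCR 12 hosts were lower and 5 higher, where 22% and 22.2% of all genes were. Both lower members lay in lower hosts and 2 of 3 higher members in higher hosts. With MPS1i in IFNAR1sg 13 hosts were lower and 3 higher, where 19.7% and 27.1% of all genes were, and 2 of 3 lower members lay in lower hosts.

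**Figure D3:**
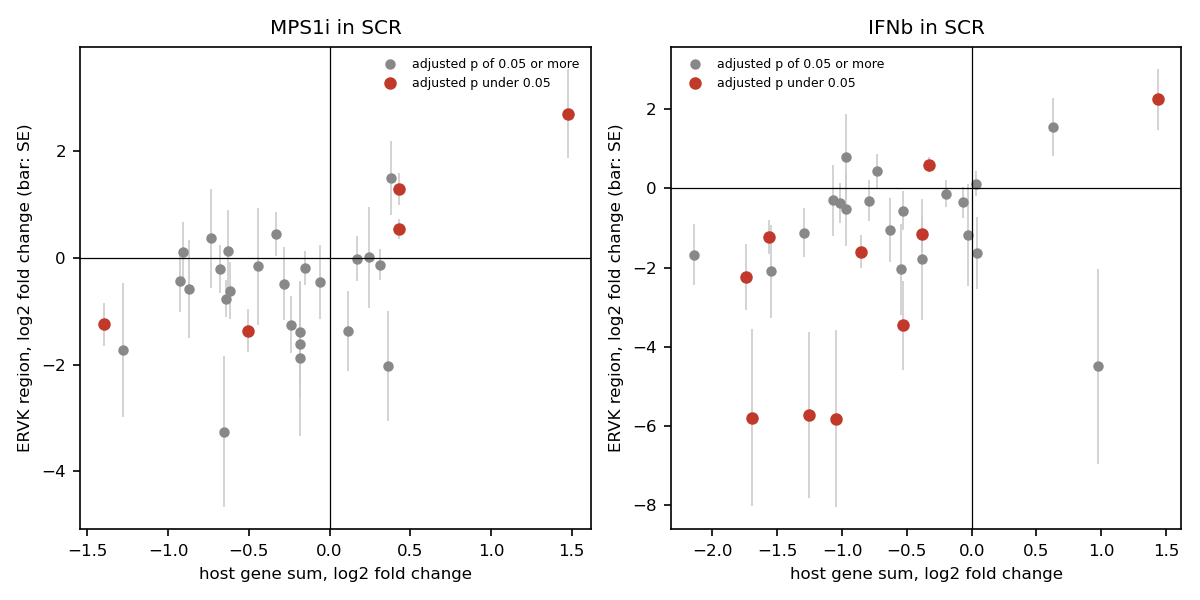
Log2 change of 30 intronic ERVK regions (vertical axis, bar for SE) against that of the host gene's sum without the region (horizontal axis), for MPS1i in SCR and IFNb in SCR. With IFNb most points lie in the lower left, with a median of -1.14 for regions and -0.68 for hosts.

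Tested LTR5 regions of HML-2 numbered 20 (13 LTR5_Hs, 4 LTR5A and 3 LTR5B). Of these, 4 were higher with MPS1i in SCR, where 9.5% of all tested regions were higher. With IFNb in SCR 4 were higher and 1 lower, where 15% and 18.1% of all tested regions were. With MPS1i in IFNAR1sg 1 was higher, where 9.41% of all tested regions were. Whether these counts differ from those shares was not tested. The LTR5_Hs region at chrY:6748888-6749394 on the plus strand (507 bp, intergenic) was at 1.09 and 0.951 (DMSO), 5.56 and 4.40 (MPS1i) and 7.91 and 9.84 CPM (IFNb) in SCR. Corresponding levels were 1.64 and 0.652 (DMSO), 2.46 and 5.23 (MPS1i) and 1.81 and 2.22 CPM (IFNb) in IFNAR1sg. In SCR both treatments lay above DMSO with no overlap, IFNb highest, and in IFNAR1sg the MPS1i libraries lay above the others. The changes were 2.24 ± 0.50 (adjusted p = 0.000731) for MPS1i and 3.09 ± 0.49 (adjusted p = 4.51e-07) for IFNb in SCR, called under every alternative run. For MPS1i in IFNAR1sg it was 1.82 ± 0.50 (adjusted p = 0.00656), lost without IFNAR1sg DMSO replicate 2 (1.22, adjusted p = 0.211) or IFNAR1sg MPS1i replicate 2 (1.13, adjusted p = 0.276). LTR5_Hs copies are nearly identical, and how reads that map to several of them were placed is unstated in the sources used here, so the copy of origin is uncertain for this and other young copies. Of 18129 chrY regions in the table, 1587 (8.75%) had a read in any library, against 54.03% of the regions on all other sequences.

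Another LTR5_Hs region, chr1:146381281-146381784 on the plus strand opposite the pseudogene SEC22B4P, had no read in either SCR DMSO library. Its reads were 0 and 0 (DMSO), 4 and 12 (MPS1i) and 0 and 0 (IFNb) in SCR. The libraries held 3 and 2 (DMSO), 15 and 13 (MPS1i) and 2 and 1 (IFNb) in IFNAR1sg. Only the MPS1i libraries held more than 3 reads, so the region passed the filter on low counts only through the groups where it was high, and its call is a description. MPS1i in SCR was at least 7.56-fold above the floor of 3 reads over the DMSO group (adjusted p = 0.00502). It was no longer called without SCR DMSO replicate 1 (adjusted p = 0.055) or SCR MPS1i replicate 2 (adjusted p = 0.0868). The neighbouring LTR5_Hs region at chr1:146380720-146381272 changed by 2.01 ± 0.76 (adjusted p = 0.0553) and was not called.

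Inside introns, the LTR5B region in HDDC2 (chr6:125297571-125298229, minus strand, 659 bp) was at 5.45 and 4.28 (DMSO), 11.9 and 12.2 (MPS1i) and 3.65 and 3.999 CPM (IFNb) in SCR. Levels in the knockout were 6.73 and 7.69 (DMSO), 8.96 and 9.26 (MPS1i) and 9.44 and 7.64 CPM (IFNb) in IFNAR1sg. In SCR only MPS1i lay above DMSO, by 1.30 ± 0.30 (adjusted p = 0.00116), kept under every alternative run, while the sum of the rest of HDDC2 rose by 0.43 (adjusted p = 0.00068). In IFNAR1sg the change was 0.33 ± 0.29 (adjusted p = 0.456), and the difference between genotypes was 0.97 ± 0.42 (adjusted p = 0.65). The LTR5_Hs region in NBPF15 (chr1:144450871-144453623, 2753 bp) was at 30.5 and 27.6 (DMSO), 45.8 and 39.1 (MPS1i) and 46.6 and 41.8 CPM (IFNb) in SCR. It was higher by 0.54 ± 0.19 (adjusted p = 0.039) with MPS1i and 0.60 ± 0.20 (adjusted p = 0.0132) with IFNb in SCR, with no overlap with DMSO. The MPS1i call was lost without any 1 of the 4 libraries compared (adjusted p = 0.0658 to 0.236), and the IFNb call without SCR DMSO replicate 2 (0.53, adjusted p = 0.0678) or SCR IFNb replicate 1 (0.52, adjusted p = 0.113). Without TMM factors neither NBPF15 call was kept, at 0.37 (adjusted p = 0.159) for MPS1i and 0.28 (adjusted p = 0.244) for IFNb. The rest of NBPF15 changed by 0.43 (adjusted p = 0.066) and -0.33 (adjusted p = 0.242). The centres of the HDDC2 and NBPF15 regions are annotated as intron, not as the LTR.

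Lower in this group was the LTR5_Hs region in ZNF875 (chr19:37331270-37332228), with 18 and 13 reads in SCR DMSO and 0 and 3 in SCR IFNb, a ratio of 0.202 (95% counting interval 0.0395 to 0.648, adjusted p = 0.0309). It was lost without SCR DMSO replicate 1 (-2.10, adjusted p = 0.106) or SCR IFNb replicate 1 (-1.28, adjusted p = 0.299), and the rest of ZNF875 changed by -1.74. Higher with IFNb were the region at chr1:145412890-145416132 by 0.67 ± 0.26 (adjusted p = 0.0392) and the LTR5B region in CCDC183 (chr9:136796474-136797180) by 0.66 ± 0.27 (adjusted p = 0.0473). The first was lost without any 1 of the 4 SCR libraries compared (adjusted p = 0.0592 to 0.258). The second was lost without SCR DMSO replicate 1, either SCR IFNb library or either IFNAR1sg DMSO library (adjusted p = 0.052 to 0.341), and both were lost without TMM factors (0.35, adjusted p = 0.291, and 0.34, adjusted p = 0.317). The other tested LTR5 regions were not called in any comparison of MPS1i or IFNb with DMSO.

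The clearest single locus was a MER11C region at chr8:143040883-143041827 on the minus strand, 945 bp, opposite the long non-coding gene LINC02904. Its reads were 5 and 3 (DMSO), 16 and 38 (MPS1i) and 29 and 31 (IFNb) in SCR. It had 4 and 5 (DMSO), 30 and 22 (MPS1i) and 13 and 6 (IFNb) in IFNAR1sg. In CPM that was 0.682 and 0.475 (DMSO), 4.04 and 6.70 (MPS1i) and 8.83 and 9.54 (IFNb) in SCR. Every MPS1i or IFNb library of SCR lay above every DMSO library, and in IFNAR1sg the MPS1i libraries lay above all IFNb and DMSO libraries. The changes were 3.18 ± 0.54 (adjusted p = 7.56e-06) for MPS1i in SCR, 3.92 ± 0.53 (adjusted p = 7.38e-09) for IFNb in SCR and 2.37 ± 0.54 (adjusted p = 0.001) for MPS1i in IFNAR1sg, all 3 called under every alternative run. No DMSO library held more than 5 reads. The region therefore passed the filter on low counts only through treated libraries where it was high, and its calls are a description. IFNb in IFNAR1sg changed it by 0.87 ± 0.63 (adjusted p = 0.753). The IFNb change was larger in SCR by 3.06 ± 0.91 (adjusted p = 0.0175), lost without IFNAR1sg DMSO replicate 1 (2.99, adjusted p = 0.067), IFNAR1sg DMSO replicate 2 (3.14, adjusted p = 0.0796) or IFNAR1sg IFNb replicate 2 (2.65, adjusted p = 0.0717). The table's annotation puts the centre of this region at the end of a transcript.

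Reads were also counted in a longer region that overlaps this locus on the plus strand. The region on the other strand, chr8:143040521-143042232 on the plus strand of LINC02904 (1712 bp), held 0 and 0 (DMSO), 8 and 16 (MPS1i) and 9 and 6 (IFNb) reads in SCR. In the knockout the counts were 1 and 0 (DMSO), 7 and 6 (MPS1i) and 5 and 4 (IFNb). This region is not an ERVK member and was chosen after its values were seen. It passed the filter only through libraries where it was high, so its values are a description without a test: at least 11.3-fold above the floor of 3 reads over the group with MPS1i and at least 10.4-fold with IFNb in SCR. Reads of this whole plus-strand region made up 23.5% of the reads of the MER11C region and the plus-strand region together. The plus-strand region extends past the MER11C region on each side. How many of the plus-strand reads lie opposite the MER11C region itself is therefore unknown. Over the 70 tested members, 55 had no read on the other strand in regions of up to 2000 bp lying mostly inside the member, 15 had any and 6 had 10 or more. Facing RNA in other regions is not counted. Of those 6, 4 were MER11C regions, 1 was MER11B and 1 LTR5_Hs. The share over all tested regions was not computed, so these counts do not set ERVK or MER11C regions apart.

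**Figure D4:**
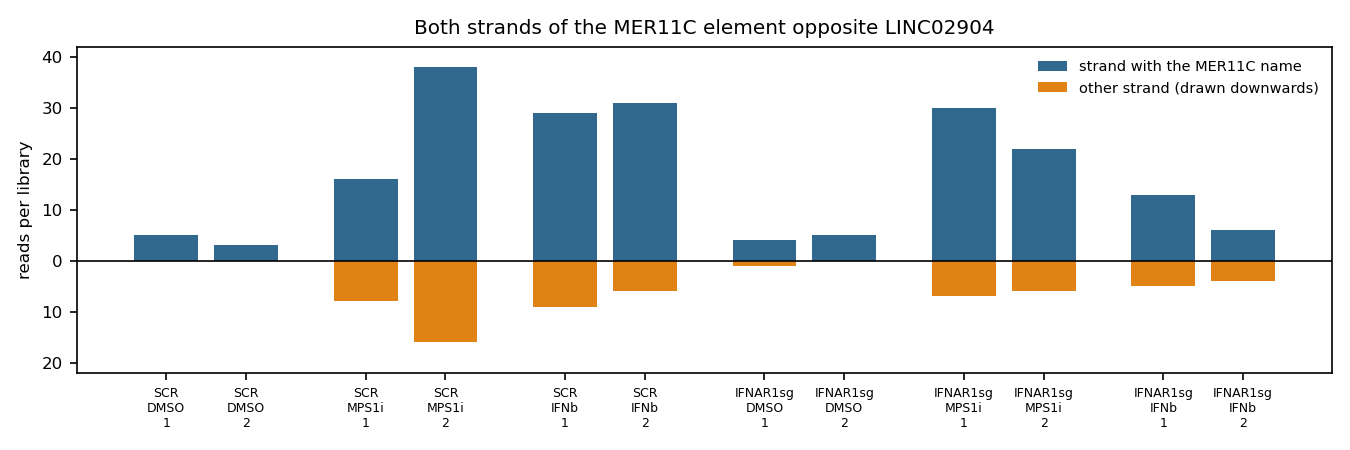
Reads in each of the 12 libraries over the MER11C region opposite LINC02904 on the minus strand and over the longer region that overlaps it on the plus strand. How many plus-strand reads lie opposite the MER11C region itself is unknown. Plus-strand reads are 0 in both SCR DMSO libraries and 6 to 16 in the SCR MPS1i and IFNb libraries.

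With IFNb in SCR 5 of the 19 tested HML-8 regions were higher and 3 lower, where 15% and 18.1% of all tested regions were. Whether these counts differ from those shares was not tested. The lower ones, chosen after their values were seen, were the HERVK11-int region in LINC00662 and the MER11A regions in SCAP and LMBR1. They had 11 and 4, 15 and 1 and 11 and 5 reads in SCR DMSO and none in SCR IFNb, at least 2.39-fold, 2.55-fold and 2.55-fold lower against the floor of 3 reads over the group (adjusted p = 0.028, 0.0386 and 0.0369). Among the higher ones, the MER11C region opposite GUCY2C-AS1 (chr12:14745785-14746729, minus strand) was at 4.09 and 2.85 (DMSO), 5.81 and 4.93 (MPS1i) and 8.83 and 7.38 CPM (IFNb) in SCR. Values in the knockout were 5.82 and 6.26 (DMSO), 4.77 and 6.31 (MPS1i) and 4.14 and 4.31 CPM (IFNb) in IFNAR1sg. The SCR IFNb libraries were the highest of the 12, above SCR DMSO by 1.21 ± 0.37 (adjusted p = 0.0087), and the SCR change exceeded the IFNAR1sg change by 1.73 ± 0.50 (adjusted p = 0.0149). The first was lost without SCR DMSO replicate 2 (0.98, adjusted p = 0.0805) or SCR IFNb replicate 1 (1.07, adjusted p = 0.0846), and the second without those or IFNAR1sg DMSO replicate 2 (adjusted p = 0.0568 to 0.0775). The intergenic MER11C region at chr1:227722828-227723657 had 2 and 2 reads in SCR DMSO and 8 and 8 in SCR IFNb, 2.97 ± 1.01 (adjusted p = 0.0178), lost without any 1 of these 4 libraries (adjusted p = 0.0608 to 0.0882). It passed the filter on low counts only through libraries other than SCR DMSO, so its call is a description. The intergenic MER11A region at chr6:103091978-103092874 rose with IFNb by 1.30 ± 0.43 (adjusted p = 0.0146), lost without SCR DMSO replicate 2 (1.09) or SCR IFNb replicate 1 (0.98). Without TMM factors neither this region (0.97, adjusted p = 0.0654) nor the one opposite GUCY2C-AS1 (0.89, adjusted p = 0.0529) was called for IFNb in SCR.

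With MPS1i, the MER11A region at chr9:101385477-101385907 rose in IFNAR1sg, from 4 and 4 to 16 and 25 reads, by 2.18 ± 0.66 (adjusted p = 0.0151). It was lost without IFNAR1sg DMSO replicate 1 (2.39, adjusted p = 0.0568), IFNAR1sg DMSO replicate 2 (1.93, adjusted p = 0.157) or IFNAR1sg MPS1i replicate 2 (1.84, adjusted p = 0.158). This region passed the filter on low counts only through libraries other than IFNAR1sg DMSO, so its call is a description. The MER11B region in AKR1B15 (chr7:134570498-134570790) had 0 and 6 reads with DMSO and 13 and 16 with MPS1i in SCR, 2.70 ± 0.84 (adjusted p = 0.017). It was lost without SCR DMSO replicate 1 (1.65, adjusted p = 0.232) or either SCR MPS1i library (adjusted p = 0.0911 and 0.0817), and the rest of AKR1B15, an aldo-keto reductase gene, changed by 1.47. The AKR1B15 region passed the filter only through libraries other than SCR DMSO, so its call is also a description.

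Among internal sequences, the HERVK14C-int region at chr8:145021069-145028146 on the plus strand (7078 bp, intergenic) had the clearest change. Its reads were 8 and 5 (DMSO), 11 and 11 (MPS1i) and 0 and 4 (IFNb) in SCR. The knockout libraries had 1 and 2 (DMSO), 22 and 26 (MPS1i) and 1 and 2 (IFNb) in IFNAR1sg. The 2 IFNAR1sg MPS1i libraries stood above all others. The region passed the filter on low counts only through MPS1i libraries, where it was high, so its call is a description. Against the 3 reads of IFNAR1sg DMSO the ratio was 14.7 (95% counting interval 4.72 to 73.6) and the fitted change 3.76 ± 0.81 (adjusted p = 0.000438), kept under every alternative run. In SCR the MPS1i change was 1.27 ± 0.69 (adjusted p = 0.192), and the difference between genotypes was -2.49 ± 1.12 (adjusted p = 0.678). The annotated centre of this region is HERVK-int.

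**Figure D5:**
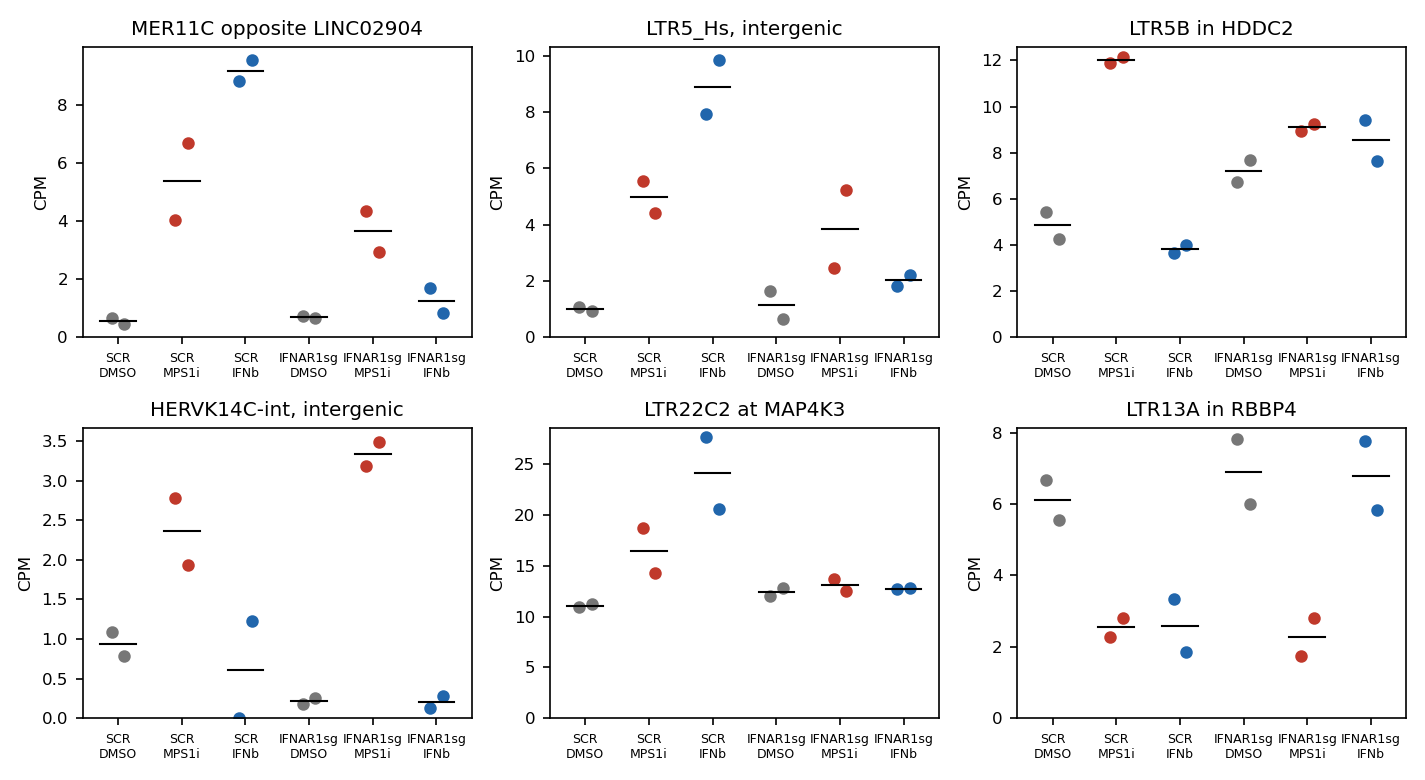
CPM in each library, with a line at the group mean, for 6 ERVK regions: MER11C opposite LINC02904, intergenic LTR5_Hs, LTR5B in HDDC2, HERVK14C-int, LTR22C2 at MAP4K3 and LTR13A in RBBP4. The first is high in all MPS1i libraries and in SCR IFNb, HERVK14C-int is highest in IFNAR1sg MPS1i, and LTR13A is low in MPS1i libraries of both genotypes and in SCR IFNb.

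Lower members lay in genes. The LTR13A region in RBBP4 (chr1:32666425-32668164, plus strand, 1740 bp), a gene for a histone-binding protein, was at 6.68 and 5.55 (DMSO), 2.28 and 2.82 (MPS1i) and 3.35 and 1.85 CPM (IFNb) in SCR. The knockout values were 7.83 and 5.997 (DMSO), 1.73 and 2.82 (MPS1i) and 7.76 and 5.84 CPM (IFNb) in IFNAR1sg. The MPS1i libraries of both genotypes and the SCR IFNb libraries lay below all DMSO libraries, while IFNAR1sg IFNb overlapped with DMSO. The changes were -1.57 ± 0.38 (adjusted p = 0.00179) for MPS1i in IFNAR1sg, kept under every alternative run, -1.24 ± 0.40 (adjusted p = 0.0229) for MPS1i in SCR and -1.23 ± 0.44 (adjusted p = 0.0242) for IFNb in SCR. The MPS1i call in SCR was lost without SCR DMSO replicate 1 or either SCR MPS1i library (adjusted p = 0.0989 to 0.139), and the IFNb call without SCR DMSO replicate 1 (-1.07, adjusted p = 0.123) or SCR IFNb replicate 2 (-0.87, adjusted p = 0.225). The rest of RBBP4 changed by -1.25, -1.40 and -1.56 in the same comparisons.

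The LTR13 region in TFDP1 (chr13:113619509-113623144), a partner of E2F factors, changed by -1.36 ± 0.41 (adjusted p = 0.0128) with MPS1i in SCR, -1.01 ± 0.33 (adjusted p = 0.0259) with MPS1i in IFNAR1sg and -1.16 ± 0.43 (adjusted p = 0.0311) with IFNb in SCR, beside -0.50, -0.60 and -0.38 for the rest of the gene. The first was no longer called without SCR DMSO replicate 2 or either SCR MPS1i library (adjusted p = 0.057 to 0.13), the second without either IFNAR1sg DMSO library or IFNAR1sg MPS1i replicate 2 (adjusted p = 0.0658 to 0.303), and the third without SCR DMSO replicate 2 (adjusted p = 0.144) or SCR IFNb replicate 2 (adjusted p = 0.358). The LTR22B region in SLC7A5 (chr16:87863658-87865198), an amino acid transporter gene, was at 7.63 and 7.29 (DMSO), 4.80 and 4.05 (MPS1i) and 3.04 and 1.85 CPM (IFNb) in SCR and fell with IFNb by 1.60 ± 0.42 (adjusted p = 0.00192), lost only without SCR IFNb replicate 2 (-1.29, adjusted p = 0.0578), with the rest of SLC7A5 at -0.85. The LTR13 region in RYK (chr3:134224346-134225449) had 15 and 11 reads in SCR DMSO and 1 and 0 in SCR IFNb, a ratio of 0.0803 (95% counting interval 0.00196 to 0.489, adjusted p = 0.0136), lost without SCR DMSO replicate 1 (adjusted p = 0.0548) or SCR IFNb replicate 2 (adjusted p = 0.126).

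Of the exon-sharing members, the HERVK14-int region over AKR1C3 (chr10:5035616-5048245, plus strand), a hormone and carbonyl reductase gene, was at 398 and 377 (DMSO), 278 and 251 (MPS1i) and 262 and 253 CPM (IFNb) in SCR. Corresponding levels were 427 and 382 (DMSO), 292 and 280.2 (MPS1i) and 393 and 396 CPM (IFNb) in IFNAR1sg. MPS1i libraries of both genotypes and SCR IFNb libraries lay below DMSO, by -0.55 ± 0.13 (adjusted p = 0.00118), -0.50 ± 0.13 (adjusted p = 0.00359) and -0.59 ± 0.13 (adjusted p = 0.000253). The IFNAR1sg call was lost without IFNAR1sg DMSO replicate 1 (-0.43, adjusted p = 0.0652). The rest of AKR1C3 changed by -0.42, -0.33 and -0.34, and the region's centre is annotated as HERVK13-int. The LTR22C2 region at MAP4K3 (chr2:39251470-39251830, minus strand, 361 bp), which shares 1 base with an exon, was at 10.9 and 11.2 (DMSO), 18.7 and 14.3 (MPS1i) and 27.7 and 20.6 CPM (IFNb) in SCR. It rose with IFNb in SCR by 1.12 ± 0.25 (adjusted p = 0.000224), kept under every alternative run, with IFNb libraries above all others, while the rest of MAP4K3 changed by -0.99. The SCR change exceeded that in IFNAR1sg by 1.09 ± 0.34 (adjusted p = 0.0262), lost without any 1 of 6 libraries (adjusted p = 0.051 to 0.165). The MER11B region at DNAH14 (chr1:224969493-224969634) rose with IFNb by 0.82 ± 0.25 (adjusted p = 0.00879), lost without SCR DMSO replicate 2 (0.66, adjusted p = 0.077) or SCR IFNb replicate 1 (0.52, adjusted p = 0.237), with the rest of DNAH14 at -0.79. Without TMM factors the DNAH14 region's change was 0.50 (adjusted p = 0.11) and not called. How far reads of the adjoining exon add to these exon-sharing regions was not tested.

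Most ERVK regions were too rarely read to be tested, and as a sum they were higher with MPS1i in both genotypes and lower with IFNb in SCR. With exon-sharing regions left out, 49.7% of ERVK reads lay in 10094 untested regions, whose level was 165 CPM in SCR DMSO, 269.8 in SCR MPS1i and 134 in SCR IFNb. In IFNAR1sg it was 174, 310.2 and 174. Untested LTR5_Hs regions had 20.4, 35.7 and 22.7 CPM in the SCR groups. ERVK regions with a read numbered 684 and 587 (DMSO), 744 and 907 (MPS1i) and 360 and 322 (IFNb) in SCR. They numbered 615 and 653, 1206 and 1048, and 679 and 715 in the DMSO, MPS1i and IFNb groups of IFNAR1sg. HERVK-int regions with a read numbered 20 and 18 (DMSO), 25 and 29 (MPS1i) and 5 and 3 (IFNb) in SCR. Such counts move with depth and with the number of regions read in a library, which was low in SCR IFNb.

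Off the strands of genes, RNA summed over all ERVK elements was higher on both strands in the MPS1i groups. For MER11A in SCR that held on 1 strand only. With IFNb the direction of the means was not the same in every subfamily and, on 1 strand, changed with the scaling. The Repeat column appears to name an element only on 1 strand, so regions of up to 2000 bp centred in an ERVK element fall into 9954 that name it and 11136 on the other strand that do not, exon-sharing regions left out. That this strand is the element's own was not stated by the submitters. Off gene strands, the naming regions had 197 CPM in SCR DMSO, 327 in SCR MPS1i and 236 in SCR IFNb. The other strand had 206, 270.1 and 111. With MPS1i both strands were higher in SCR, by log2 ratios of 0.73 (naming) and 0.39 (other), beside 0.38 for all reads off gene strands. In IFNAR1sg these ratios were 0.64, 0.71 and 0.51. The regions of the 2 classes were not matched element by element, so the sums do not show both strands of the same elements. With IFNb the other strand was lower, by a log2 ratio of -0.89 (-1.21 without TMM factors), and the naming strand had a ratio of 0.26 that turned to -0.06 without TMM factors. In IFNAR1sg the MPS1i means were 349 against 224 in DMSO on the naming strand and 325 against 199 on the other. For LTR5_Hs off gene strands, the naming strand had 26.1, 50.95 and 39.3 CPM in the SCR groups and the other strand 12.1, 16.5 and 10.6. For MER11A off gene strands the naming strand had 13.7, 31.9 and 21.6 and the other strand 42.2, 38.6 and 14.4. For HERVK-int both strands were lower with IFNb, with 6.35, 10.3 and 1.83 CPM on the naming strand and 0.952, 2.09 and 0.458 on the other. These means have n = 2 and no test.

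Genes that silence endogenous retroviruses mostly had lower summed levels in the same libraries. These sums are largely intronic reads bound by J2 and so are not a measure of messenger RNA. Of 30 such genes, all measured, 1 rose and 17 fell with MPS1i in SCR, with a median of -0.53 beside 0.07 over all 14339 gene sums, of which 22.2% were higher and 22% lower. With MPS1i in IFNAR1sg 0 rose and 17 fell (27.1% and 19.7% of all), with a median of -0.45 beside 0.16. With IFNb in SCR 1 rose and 19 fell (8.01% and 39.4% of all), with a median of -0.80 beside -0.59. SETDB1, a histone methyltransferase for H3K9, changed by -1.16 with MPS1i in SCR, -1.08 in IFNAR1sg and -1.51 with IFNb in SCR. UHRF1, which guides maintenance methylation, changed by -1.32, -1.28 and -1.18, and DNMT1, the maintenance methyltransferase, by -1.43, -1.04 and -0.65. DAXX, a histone chaperone, rose by 1.58 with MPS1i and 1.51 with IFNb in SCR. TRIM28 changed by 0.90 with MPS1i in SCR and was not called (adjusted p = 0.234). Their part in the ERVK changes was not tested.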

How the data were processed

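RNA bound by the J2 antibody was sequenced in 12 libraries, 2 in each of 6 groups taken from the labels. The deposited table holds raw whole-number counts of reads per stranded region, per the file headers and the values. Per the submitters' processing notes, the tools were HOMER, STAR, featureCounts, cutadapt, Trimmomatic and Trim Galore and the builds GRCh38 and hg38, and their versions and the handling of reads that map to several places are not given in the sources used here. Library totals were 3739443 to 7430687 reads, intervals cover counting error only, and 0 value columns belonged to no sample.

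ERVK regions are those whose Repeat column holds 1 name of that class. The members and the gene lists were chosen with earlier results of these data known. Regions were placed against GENCODE 29 with bedtools 2.31.1 as exon-sharing, intronic, antisense or intergenic, and 58252 of 58780 gene names matched current symbols. Gene sums add the intronic regions of 1 gene, with ERVK members and exon-sharing regions left out. Counts, and sums over families, subfamilies and genes, were fitted in R 4.3.3 with edgeR 4.0.16 (quasi-likelihood test, TMM factors, all 12 libraries, 6 group means), after a filter (minimum count 10, minimum total 15, proportion 0.7). P-values were adjusted by Benjamini-Hochberg over all features tested, with calls at 0.05. The region fit had a common dispersion of 0.0313, a prior of 72.9 and 6 residual degrees of freedom. CPM values use TMM-scaled library sizes. Folds against a group with no reads use a floor of 3 reads over the group, with exact 95% intervals for ratios of few reads.

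Alternatives were DESeq2 1.42.0, its size factors, no TMM factors, no filter, only the groups compared, the replicate block, each library left out, both SCR IFNb libraries left out, and exon-sharing regions in the sums or off-gene regions only. The scripts were tested on data simulated for MPS1i in SCR. Of region changes of 1 and 2 on the log2 scale, 6% and 46% were called. For subfamily sums these shares were 68% and 91%. A region that was not called can therefore still have changed. Other tools were limma 3.58.1, Python 3.11.15, pandas 2.3.3 and scipy 1.17.1. Named loci were, by a fixed rule, up to 12 tested LTR5 or HERVK-int regions with the smallest p for either treatment in SCR, and among other called members those with the smallest p in each comparison and direction. RefSeq promoter windows of GRCh38.p14 served only as background for the motif search, and a motif search in all tested regions was not run. Input libraries were not analysed here.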

Additional observations from a re-analysis of the deposited data

Results flagged for a closer look

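The IFNb change differed between SCR and IFNAR1sg by the tested difference of the changes (SCR minus IFNAR1sg, log2, edgeR's quasi-likelihood test with Benjamini-Hochberg adjustment) for 8 regions and 5 subfamily sums. Of the regions, 6 had a larger change in SCR in the higher direction. These were the MER11C regions opposite GUCY2C-AS1 (1.73 ± 0.50, adjusted p = 0.0149), opposite LINC02904 (3.06 ± 0.91, adjusted p = 0.0175) and at chr1:227722828-227723657 (4.23 ± 1.44, adjusted p = 0.0405). They also included LTR22C2 at MAP4K3 (1.09 ± 0.34, adjusted p = 0.0262), LTR5B in CCDC183 (1.09 ± 0.38, adjusted p = 0.0426) and the LTR5_Hs region on chromosome Y (2.21 ± 0.77, adjusted p = 0.0458). The LINC02904 and chr1 MER11C regions passed the filter on low counts only through libraries other than SCR DMSO, so their differences are descriptions. The difference was in the lower direction for HERVK14-int over AKR1C3 (-0.55 ± 0.18, adjusted p = 0.034) and LTR13 in RYK (-3.88 ± 1.32, adjusted p = 0.0411).

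Of the subfamily sums, MER11C was in the higher direction (0.95 ± 0.23, adjusted p = 0.000936). LTR14 (-2.25 ± 0.62, adjusted p = 0.0037), LTR3B_ (-3.59 ± 1.14, adjusted p = 0.0137), LTR22B (-1.14 ± 0.38, adjusted p = 0.0183) and LTR13 (-0.74 ± 0.26, adjusted p = 0.0269) were in the lower direction. Each of the 8 regional differences was lost in at least 1 alternative that left out a single library. Without TMM factors the differences were also lost for the chromosome Y LTR5_Hs region, CCDC183, MAP4K3 and the chr1 MER11C region (adjusted p = 0.0539 to 0.135). The difference was lost without any 1 of 7 libraries for the LTR5_Hs region (adjusted p = 0.0705 to 0.344) and the CCDC183 region (0.0523 to 0.203), 8 for the chr1 MER11C region (0.06 to 0.121) and RYK (0.0559 to 0.175), and 6 for AKR1C3 (0.0621 to 0.146). Both SCR IFNb libraries, which stand apart in TMM factor and in regions with a read, enter every one of these differences, and their part in them was not tested.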

How the results depend on the processing

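Of 71 calls, each for a named locus or a subfamily sum in 1 comparison, 21 held under every alternative run and 50 were lost under at least 1. The calls for regions with MPS1i in SCR, IFNb in SCR, MPS1i in IFNAR1sg and the IFNb difference between genotypes numbered 5, 11, 5 and 4 with DESeq2 and 4, 4, 4 and 0 with no filter, where many more regions enter the adjustment. With 1 library left out they ranged from 4 to 10, 8 to 21, 4 to 8 and 1 to 8. The calls for subfamily sums with MPS1i in SCR numbered 3 with DESeq2, 5 without TMM factors, 4 with no filter and 3 to 8 with 1 library left out. With IFNb in SCR they ranged from 5 to 11 and with MPS1i in IFNAR1sg from 6 to 9 with 1 library left out. For the IFNb difference they numbered 3 with DESeq2, 11 without TMM factors, 3 with no filter, 8 once exon-sharing regions were added and 3 to 7 with 1 library left out.

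The family sum changed with MPS1i by 0.048 in SCR and 0.062 in IFNAR1sg once exon-sharing regions were added, and HERVK14-int by -0.52 and -0.46, where the AKR1C3 region enters. For IFNb in SCR the family sum changed by 0.021 under size factors from DESeq2, -0.33 with no TMM factors, 9.53e-05 with only the groups compared, -0.21 with exon-sharing regions, 0.36 off gene strands, and -0.10 to 0.076 with 1 library left out. For IFNb in IFNAR1sg it changed by 0.00786 off gene strands and -0.028 to 0.037 with 1 library left out. The MPS1i difference between genotypes ranged from -0.098 to 0.096. The IFNb difference was 0.051 under size factors from DESeq2, -0.29 with no TMM factors, 0.35 off gene strands and -0.10 to 0.076 with 1 library left out. Of the levels given without a test, 3 log2 ratios turned sign with no TMM factors: intronic ERVK with MPS1i to -0.11 in SCR and -0.078 in IFNAR1sg, and the strand that names the element with IFNb in SCR to -0.063. Where no construction is named, the cause was not tested.

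Replicate numbers showed no pairing of the samples: the 15 correlations of replicate differences between groups lay between -0.06 and 0.09, 0 of them over 0.1. Counting error in regions with few reads lowers such correlations, so they cannot exclude paired cultures or a shared batch. With the replicate block, regions called numbered 10, 20, 8 and 8 and subfamily sums 8, 11, 7 and 5 in the same 4 comparisons, and the family sum changed by 0.46 with MPS1i in SCR and 0.46 in IFNAR1sg, -0.01 and -0.00 with IFNb, 0.10 between genotypes in DMSO, and -0.01 and -0.01 for the differences. The 6575 of 10171 members with no read at this depth could not be tested.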
